A study of Mus musculus with 4 samples.

Results

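The liver of Mertk knockout mice with a ligated bile duct gave 49403 distal ATAC peaks that had no counterpart in the wild-type liver. They were chosen by the peak calls themselves: a knockout peak on chromosomes 1 to 19, X or Y that the authors' annotation calls distal and never promoter, and that overlaps no wild-type peak by even 1 bp. They made up 56.3% of the 87769 distal peaks of the knockout library, within 106319 knockout peaks and 178621 peaks of both libraries together. Being open in knockout and not called in wild type is therefore how the peaks were picked and not a result. The groups were Mertk knockout mice after bile duct ligation and wild-type mice after the same operation, with 1 ATAC and 1 RNA library each, read from the same nuclei of frozen liver with the 10x Genomics Multiome assay. Both genotypes carried the ligation and neither had an unoperated control. The labels do not state the number of animals per library, their age or sex, the time after surgery, or which part of Mertk was removed. With 1 library per genotype there was no replicate and no test, and every difference below describes these libraries.

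Bile duct ligation dams up bile, which injures hepatocytes, drives bile ducts to proliferate and leads to fibrosis. Mertk is a receptor tyrosine kinase with which macrophages recognise and engulf dying cells. In ATAC a transposase cuts DNA that nucleosomes leave exposed, and many such sites away from promoters are enhancers, silencers or insulators. Enhancers are the most cell-type-specific part of open chromatin, and in hepatocytes they are bound by the factors HNF4A, FOXA and CEBP, often many around 1 liver gene.

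Depth and the calling of cell-type promoters differed between the libraries along with genotype. Called nuclei numbered 5339 in the knockout and 5828 in the wild-type library, with 83996145 and 40858512 ATAC fragments, a ratio of 2.06, and 44 barcodes were called in both. The median nucleus held 8771 fragments and 1232 RNA molecules in knockout, against 4950.5 fragments and 3769 RNA molecules in wild type. Of 20 hepatocyte markers, all 20 had a promoter peak in the knockout library and 4 had one in the wild-type library, so the defining promoters of the main liver cell were largely uncalled in the wild-type liver. Over all genes, promoter peaks were called for 17006 in knockout and 14854 in wild type. Of 20 Kupffer cell markers, 17 had a promoter peak in each library. More nuclei of a cell type and more open chromatin per nucleus cannot be told apart in such pooled peak lists, nor can genotype be told apart from depth. The part that depth or cell make-up plays in the results below was not tested.

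Where a knockout-only peak covers a gene's transcription start in RefSeq, its sequence can be shown. Windows of 250 bases before and 50 after a RefSeq start (GRCm38.p6, the assembly of mm10) lay wholly inside 375 of the 49403 peaks. The authors' annotation places no promoter there. Only the 250 bases before the start were searched for motifs and are shown. These windows carried 375 gene symbols, of which 47 were gene names and 328 predicted or clone names. The 5 shown were chosen after their values were seen, for their liver biology and their motif letters. 9030622O22Rik is a transcript next to Foxa2 (chr2:148040349-148040598, minus strand). Cyp2c39 is a cytochrome P450 that hydroxylates retinoic acid (chr19:39347096-39347345, plus strand). Cfhr3 is a complement factor H-related gene (chr1:139661007-139661256, minus strand). Ece1 encodes the enzyme that activates endothelin (chr4:137920543-137920792, plus strand). Hnf4a encodes the nuclear receptor that maintains hepatocyte identity, and the window is the upstream one of its 2 in RefSeq (chr2:163506607-163506856, plus strand). Each is written 5′ to 3′ on the gene's strand, and capitals mark letters that match a searched motif on either strand.
9030622O22Rik: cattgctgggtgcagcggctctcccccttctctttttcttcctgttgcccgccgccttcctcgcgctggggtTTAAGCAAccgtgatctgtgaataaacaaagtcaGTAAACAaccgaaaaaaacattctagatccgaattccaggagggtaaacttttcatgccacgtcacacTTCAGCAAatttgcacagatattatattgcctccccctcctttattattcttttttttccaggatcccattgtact
Cyp2c39: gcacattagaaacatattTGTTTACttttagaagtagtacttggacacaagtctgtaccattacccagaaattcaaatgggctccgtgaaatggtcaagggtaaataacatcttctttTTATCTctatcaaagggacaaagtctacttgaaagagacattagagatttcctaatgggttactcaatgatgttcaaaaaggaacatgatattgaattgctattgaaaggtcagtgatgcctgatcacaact
Cfhr3: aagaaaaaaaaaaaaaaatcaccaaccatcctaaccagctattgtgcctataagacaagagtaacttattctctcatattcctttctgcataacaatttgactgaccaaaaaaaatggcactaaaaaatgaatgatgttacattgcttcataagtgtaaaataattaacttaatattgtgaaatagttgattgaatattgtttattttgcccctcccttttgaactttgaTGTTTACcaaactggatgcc
Ece1: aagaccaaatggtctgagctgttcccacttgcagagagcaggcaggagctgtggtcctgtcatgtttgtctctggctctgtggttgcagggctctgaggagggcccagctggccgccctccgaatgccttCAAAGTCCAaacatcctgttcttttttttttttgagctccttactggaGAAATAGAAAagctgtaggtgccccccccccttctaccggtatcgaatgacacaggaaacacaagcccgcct
Hnf4a: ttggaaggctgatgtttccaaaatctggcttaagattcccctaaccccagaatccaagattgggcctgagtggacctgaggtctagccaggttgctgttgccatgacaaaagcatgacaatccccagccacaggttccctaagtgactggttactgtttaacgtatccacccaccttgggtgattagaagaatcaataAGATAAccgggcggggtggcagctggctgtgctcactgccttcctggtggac
The capitals are a pair of CEBP matches and a FOXA match in 9030622O22Rik, a FOXA and a GATA match in Cyp2c39, a FOXA match in Cfhr3, an HNF4 and an IRF match in Ece1, and a GATA match in Hnf4a. The letters of each motif are given with its shares below.

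Knockout-only peaks also covered microRNA genes. Of 1005 hairpins in RefSeq, 48 overlapped a knockout-only distal peak, held by 43 peaks, against 37 that overlapped a knockout distal peak shared with wild type and 15 that overlapped a wild-type-only distal peak. The 48 were 56.5% of hairpins on any knockout distal peak, next to the 56.3% of knockout distal peaks that are knockout-only. The mature forms shown lie wholly inside such peaks and were chosen after the overlaps were seen, with the seed, bases 2 to 8, in capitals.
miR-802-5p: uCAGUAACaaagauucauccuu
miR-200a-3p: uAACACUGucugguaacgaugu
miR-130a-3p: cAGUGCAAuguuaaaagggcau
miR-199b-3p: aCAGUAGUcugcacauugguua
miR-3073a-5p: gUGGUCACaguuggcgccagcc
miR-3073b-5p: aUGGUCACaguggacaucaacc
miR-294-3p: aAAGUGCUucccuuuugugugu
miR-295-3p: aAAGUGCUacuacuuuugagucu
miR-802-5p (chr16:93369737-93369758, plus strand) lay in a peak of 888 bp, 21.5 kb from the nearest wild-type peak. miR-200a-3p (chr4:156054911-156054932, minus strand) holds epithelial cells in their state by repressing Zeb factors, and its peak of 882 bp lay 3.87 kb from the nearest wild-type peak. miR-130a-3p (chr2:84741116-84741137, minus strand) and miR-199b-3p (chr2:32318524-32318545, plus strand) lay in peaks of 789 bp and 881 bp. miR-3073a-5p and miR-3073b-5p share the seed UGGUCAC and come from opposite strands of the same 900 bp peak at Aspg, the gene of an asparaginase, 20.7 kb from a wild-type peak. miR-294-3p and miR-295-3p, of a cluster known from embryonic stem cells, share the seed AAGUGCU and a single 885 bp peak, which lay 0.816 kb from a wild-type peak.

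The motif letters before the start sites differed between classes of distal peak. With 1 window per peak, TTGCNNAA, the core of a CEBP site, stood in 20% of 375 windows in knockout-only peaks (exact 95% interval 16.1 to 24.4%), against 9.83% of 468 windows in knockout peaks shared with wild type (7.29 to 12.9%) and 8.16% of 98 windows in wild-type-only peaks (3.59 to 15.5%). All 32817 RefSeq windows held it in 9.57%. These and all later intervals cover counting error only, since peaks of 1 library are not replicates. TGTTTAC, the FOXA core, stood in 6.4% of windows in knockout-only peaks (4.14 to 9.37%) and 2.78% in shared peaks (1.49 to 4.7%). In wild-type-only peaks it stood in 4.08% (1.12 to 10.1%), and in all windows in 3.16%. CAAAGTCCA, a site of HNF4A, stood in 9 knockout-only windows (2.4%, 1.1 to 4.51%) and 2 shared windows (0.427%, 0.0518 to 1.54%). None of the 98 wild-type-only windows held it (0 to 3.69%), and 0.384% of all windows did. For FOXA and HNF4 letters alike, the knockout-only interval overlapped those of the other classes. The direct repeat of nuclear receptors, AGGNCA repeated after 1 free base (DR1), was found in 5 knockout-only windows, in no shared or wild-type-only window, and in 0.338% of all windows.

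The other motifs followed no common order. GAGGAAGT, bound by the myeloid factor PU.1, stood in 1.6% of knockout-only windows (0.589 to 3.45%) and 5.77% of shared windows (3.84 to 8.28%). In wild-type-only windows it stood in 7.14% (2.92 to 14.2%), an interval that overlaps the knockout-only one. The CTCF letters, CCA, AG and GGC with 2 free bases between each, stood in 2.93% of knockout-only, 7.48% of shared and 2.04% of wild-type-only windows. The interferon factor (IRF) letters, GAAA repeated after 2 free bases, stood in 2.13%, 2.99% and 10.2% of the same 3 classes, and TGTGGTTT of RUNX in 2.4%, 1.92% and 6.12%. All windows held PU.1 letters in 2.44%, CTCF in 2.07%, IRF in 2.97% and RUNX in 1.49%. TGANTCA of AP-1 was about as frequent in all, at 9.33%, 8.76% and 9.18%. GGAATGT of TEAD stood in 6.13%, 3.42% and 3.06%, and AGATAA, for GATA factors, in 13.3%, 8.33% and 14.3%. Of all windows 6.75%, 3.25% and 9.99% held these last 3 motifs. Both strands were searched, and matches of different motifs, which can overlap, were counted separately. A match is a description of letters and not a bound site.

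Base composition moved with class too, with a median of 49.6% G or C and 3 CpG in knockout-only windows, 52.4% and 6 in shared windows, and 48.8% and 3 in wild-type-only windows. Among windows under 50% GC the CEBP letters stood in 26.7% of 191 knockout-only and 12.7% of 157 shared windows, and at 50% GC or more in 13% of 184 and 8.36% of 311. The FOXA letters stood in 9.42% against 2.55% below 50% GC, and in 3.26% against 2.89% above it. The excess of FOXA letters in knockout-only over shared windows was thus mostly among AT-rich windows, while that of CEBP letters was present in both bands.

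**Figure D1:**
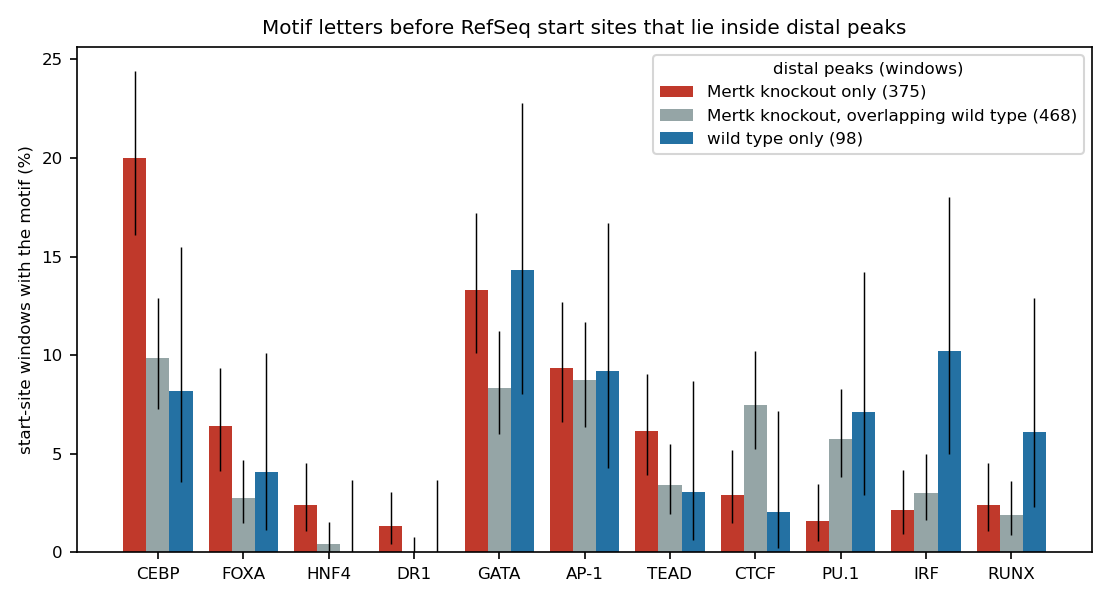
Share of RefSeq start-site windows (250 bases before the start, 1 per peak) that hold each motif's letters, in percent, for knockout-only (375 windows), shared knockout (468) and wild-type-only (98) distal peaks; bars are shares and lines exact 95% binomial intervals of counting error. CEBP letters stand at 20% in knockout-only windows, against 9.83% and 8.16% in the other classes, and PU.1 letters at 1.6% against 5.77% and 7.14%.

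Knockout-only distal peaks had the shape of other distal peaks. Their median width was 877 bp (quartiles 829 and 906, range 160 to 1830), that of shared knockout distal peaks 881 bp, and that of wild-type-only distal peaks 864 bp. In all they covered 42.3 Mb, against 33.0 Mb of shared knockout distal peaks and 15.8 Mb of wild-type-only distal peaks. The reverse set, distal peaks found in wild type only, numbered 18739 or 32.9% of 57035 wild-type distal peaks, so knockout-only peaks were 2.64 times as many while the whole peak lists stood at a ratio of 1.47.

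The 1 bp rule cut through few borderline peaks. Of the knockout-only peaks, 2 directly abutted a wild-type peak, 565 (1.14%) lay within 100 bp of one and 3025 (6.12%) within 500 bp. On the other side of the rule, 5 shared knockout distal peaks overlapped a wild-type peak by a single base and 380 (0.99%) by 100 bp or less, with a median overlap of 825 bp. The median gap of a knockout-only peak to the nearest wild-type peak was 7.02 kb (quartiles 2.44 and 21.2 kb), and 3666 peaks (7.42%) lay more than 100 kb from any, up to 3.08 Mb. In the reverse set the median gap was 3.79 kb, and 1.21% lay more than 100 kb from a knockout peak. On every autosome and X, between 52.7% (chromosome 11) and 59.3% (X) of knockout distal peaks were knockout-only. On Y it was 11 of 23.

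The authors' annotation gives each distal peak 1 or more genes with a distance, where 0 was taken to mean the gene body. By that reading 11027 knockout-only peaks (22.3%, interval 22 to 22.7%) were in a gene body, against 20.9% of shared knockout and 21.3% of wild-type-only distal peaks. Set against RefSeq spans, distance 0 turned out to mark only some peaks in genes. Of the lines of knockout-only peaks whose gene has a RefSeq span, 20176 with a distance other than 0 lay inside the gene they name and 22049 outside it, while 10225 lines with distance 0 lay inside and 629 outside. A line with a nonzero distance gives the distance to a start site. Of 15705 such lines of knockout-only peaks that lay inside a gene with a RefSeq start-site window, 87% had a positive sign, which is downstream of the start.

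By RefSeq spans, 32823 knockout-only peaks (66.4%, interval 66.0 to 66.9%) overlapped a gene, against 64.4% of shared knockout and 65.2% of wild-type-only distal peaks. Protein-coding genes held 57.0%, 53.7% and 56.0% of the 3 classes. Position along the body was read from peak midpoints in protein-coding genes of 20 kb or more. A midpoint inside overlapping genes was placed once in each. Knockout-only peaks thinned from start to end, with 21.9%, 20.9%, 20.2%, 18.7% and 18.3% of 19928 placements in 5 equal stretches of the body. Shared knockout distal peaks had 21.9% in the first stretch and 19.2% in the last, and wild-type-only distal peaks 24.2% and 16.7%. Knockout-only peaks lay at a median 17.6 kb from a start site, against 15.6 kb for shared knockout and 17.5 kb for wild-type-only distal peaks. More than 50 kb away lay 19.4% of knockout-only, 15.5% of shared and 19.2% of wild-type-only peaks. In distance to start sites and in their share over 50 kb, knockout-only and wild-type-only peaks were close to each other and both lay farther out than shared peaks. Outside genes, 36.9% of 16562 knockout-only peaks lay downstream of the nearest start, against 36.4% of shared knockout and 35.5% of wild-type-only peaks.

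The peaks were spread over many genes and piled up at some. Of 24914 genes with a knockout peak, 17812 had at least 1 knockout-only distal peak: 6101 had exactly 1, 7752 had 2 to 4, 2970 had 5 to 9, 849 had 10 to 19 and 140 had 20 or more. Genes with 10 or more numbered 989 (3.97%) and those with 5 or more 3959 (15.9%). With knockout peaks reduced to the widest, as many as in the wild-type list, 372 genes had 10 or more. In the reverse direction, 121 of 22142 genes with a wild-type peak had 10 or more wild-type-only distal peaks (0.546%) and 947 had 5 or more (4.28%). These reverse counts were made against the full knockout list, so they are no match for the count from the reduced list. Of the 989 genes, 705 had a promoter peak in both libraries, 131 in knockout alone, 13 in wild type alone and 140 in neither. Long genes dominated: the median gene body was 150 kb among the 989 and 22.5 kb among genes with 1 to 9 such peaks. At 710 of the 932 with a RefSeq span at least 50% of the peaks lay in the gene's own body, and at 45 none did.

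Fgfr2, a fibroblast growth factor receptor, led with 113 knockout-only distal peaks beside 75 shared knockout and 19 wild-type-only distal peaks. Its count is mostly a matter of assignment, because 9 of the 113 lay in its RefSeq span (chr7:130162451-130266808) and 104 outside it. Next came Pde4d, a cAMP phosphodiesterase, with 47 peaks (42 in the body), and Rora, a clock-linked orphan nuclear receptor, with 45, all in the body. Magi1, a tight junction scaffold, had 44 knockout-only peaks and 40 of them in the body. Kalrn, a guanine nucleotide exchange factor, Nav2 and Zbtb20, the repressor of the fetal alpha-fetoprotein gene in liver, had 38 each. Apart from Fgfr2 and Bcor, where 12 of 29 lay in the body, each of the 20 leading genes had more of its peaks inside its body than outside.

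At 4 leading genes the knockout-only peaks made up 85.4% (Ptprg) to 97.4% (Dpyd) of the knockout distal peaks. Pard3, a polarity protein of epithelial junctions (chr8:127063381-127612286), had 39 knockout-only distal peaks, all in its body, beside 3 shared knockout and 4 wild-type-only peaks. Dpyd, which starts the breakdown of uracil and thymine (chr3:118562109-119432924), had 38 beside 1 shared and no wild-type-only peak. Its promoter peak was present in both libraries. Ank3, a membrane adaptor of epithelia and neurons, had 32 beside 3 shared and no wild-type-only peak, with 4 promoter peaks in knockout and none in wild type. Ptprg, a receptor phosphatase, had 35 beside 6 shared and 2 wild-type-only peaks. At other leading genes both libraries had peaks of their own: Arid1b, a chromatin remodelling subunit, had 34 knockout-only and 20 wild-type-only peaks, and Foxp1, a forkhead factor, had 33 and 22. The remaining leading genes, Lpp, Prkce, Pvt1, Nfia, Rad51b, Tcf7l2 and Bcor, had 29 to 37 knockout-only peaks, with 15 to 35 shared knockout and 3 to 14 wild-type-only peaks.

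**Figure D2:**
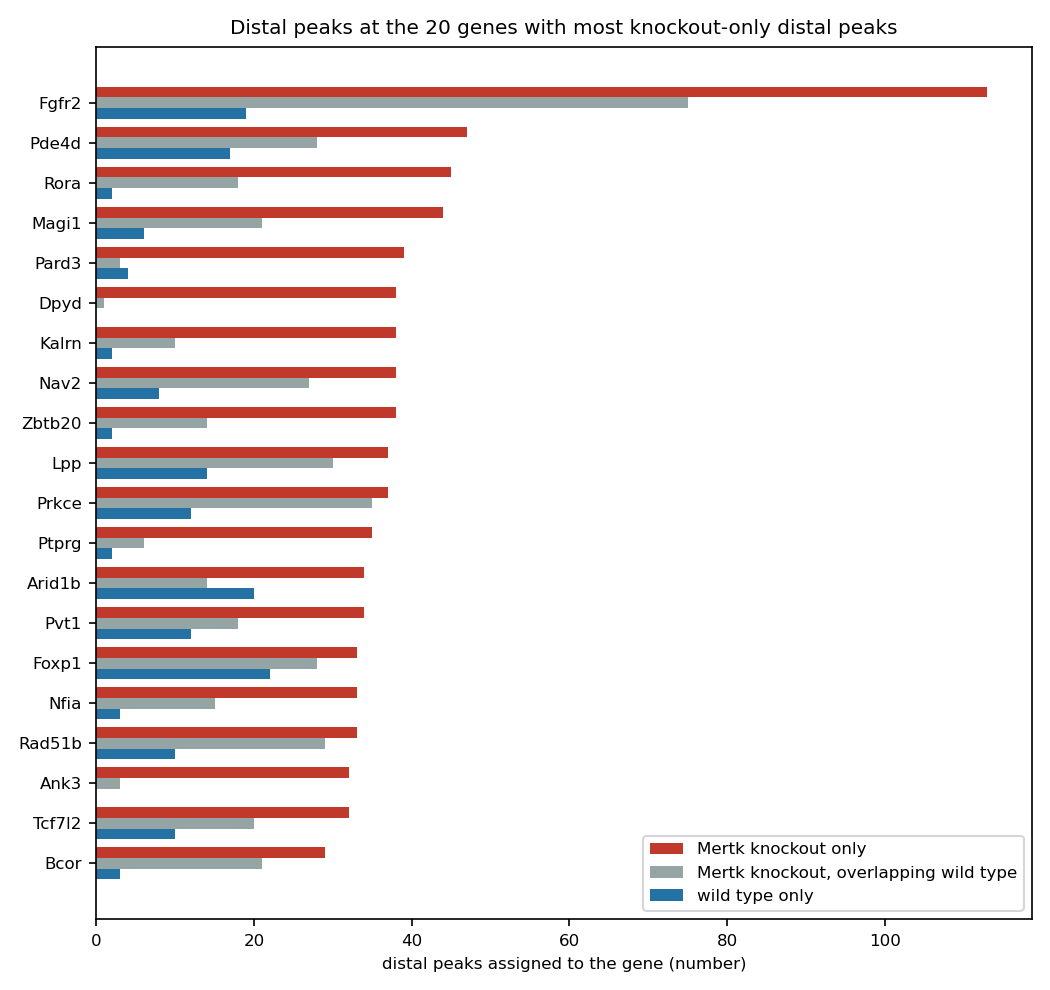
Number of distal peaks assigned to each of the 20 genes with most knockout-only distal peaks (predicted and clone-named genes left out), drawn as knockout-only, shared knockout and wild-type-only bars from top to bottom. Fgfr2 leads with 113, 75 and 19; Dpyd (38, 1 and 0) and Ank3 (32, 3 and 0) have almost no other distal peak.

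Per length, the densest gene bodies of 20 kb or more were those of Klhl25, Sdc1, Slc2a2, Flt4, Elmod3, Dusp10, Bag4, Trim25, Rab4a and Agtr1a, at 27.1 to 23.6 knockout-only peaks per 100 kb of body. Slc2a2, the glucose transporter GLUT2 of hepatocytes (chr3:28697903-28728361), had 12 knockout-only peaks, 8 in the body, beside 2 shared and 1 wild-type-only distal peak. Flt4, the VEGF receptor VEGFR3 (chr11:49609679-49652739), had 11, all in the body, beside 3 shared and no wild-type-only peak. Agtr1a, the angiotensin II receptor (chr13:30336356-30382867), had 13, of which 11 lay in the body, and its promoter peak was called in knockout alone. Dusp10, a phosphatase of stress kinases, had 14 and Sdc1, a heparan sulfate proteoglycan, had 9. Klhl25, at the top by density, also had 7 wild-type-only peaks beside its 8 knockout-only peaks.

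Genes without any wild-type peak numbered 3316 of the 24914 with a knockout peak (13.3%). Of these 3316 genes, 357 had 5 or more knockout-only distal peaks and 47 had 10 or more. Both are smaller shares than the 15.9% and 3.97% among all genes with a knockout peak. Pde3a, a phosphodiesterase of cAMP and cGMP, led with 22, followed by Gc, the vitamin D binding protein made by hepatocytes, with 19, and Aldh1a1, a retinaldehyde dehydrogenase, and Lmo7 with 17 each. Gc (chr5:89417511-89457898) had 8 of its 19 in the body and a promoter peak in knockout. Cccd201, Ly6l, Pcsk6, a proprotein convertase, and Zfp385b had 16 each, and Ppp2r2b had 15. Position differed among them, with all 16 peaks of Pcsk6 and of Zfp385b in the body and 15 of the 16 of Ly6l outside it.

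Mertk, the targeted gene (chr2:128698915-128803162), had 6 knockout-only distal peaks, all in its body and the nearest 20.1 kb from a start, beside 5 shared knockout and 4 wild-type-only distal peaks. With promoters counted, it had 13 knockout and 10 wild-type peaks, and a promoter peak in each library. Open chromatin at the gene does not check the genotype label, because the deleted part is not known here. Of the other TAM receptors and their ligands, Axl had 6 knockout-only peaks beside 3 shared, Tyro3 had 1 and no shared one, Gas6 had 7 beside 2, and Pros1 had 6 beside 1.

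Gene groups differed in how far their knockout distal peaks were knockout-only, set beside 56.3% over all knockout distal peaks. These shares rest on the same peak calls that chose the peaks, so they are descriptions. Hepatocyte markers stood highest, with 113 knockout-only and 17 shared peaks, or 86.9% (79.9 to 92.2%). Of these 20 genes, 10 had 5 or more knockout-only peaks and 9 had no wild-type peak, where 15.9% and 13.3% of all genes with a knockout peak do. Apoa1, the main protein of high-density lipoprotein, had 17 knockout-only and 6 shared peaks, none of the 17 in its short body. Cps1, the entry enzyme of the urea cycle, had 11, and Alb, the gene of serum albumin, and Cyp3a11 had 9 each, with no shared and no wild-type peak at these 3 genes. Other markers went the other way: Ttr had 1 knockout-only and 3 wild-type-only peaks, and Ass1 had 2 and 4. Apoa2 had no knockout-only and 1 wild-type-only peak. The list held 13 wild-type-only peaks in all.

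Metabolic groups of the hepatocyte also stood above the share of all peaks. Genes of cytochrome P450 and conjugation had 81.7% (71.6 to 89.4%), and 12 of 20 had no wild-type peak. Cyp2b10 had 9 knockout-only peaks and Cyp2a5 had 7, with no other distal peak, and the retinoic acid hydroxylase Cyp26a1 had 6 beside 3 shared. Other genes of this list went the other way or stood even: Gstm1 had no knockout-only and 1 shared peak, Cyp4b1 2 and 3, and Por 4 and 4. Genes of bile acid synthesis and transport had 73.9% (66.3 to 80.6%). Nr1h4, the bile acid receptor FXR, had 14 beside 4 shared peaks, and Cyp7b1, of the alternative synthesis pathway, had 10 beside 5. Cyp7a1, which sets the pace of bile acid production, had 9 beside 1 and a promoter peak in knockout alone. Abcb11, which pumps bile salts into the canaliculus, had 6 and no wild-type peak. Abcc4, a basolateral exporter, was the exception with 10 knockout-only and 19 shared peaks. Lipid and cholesterol genes had 70.7%, with 18 at Ppara, the receptor that switches on fat oxidation, 17 at the elongase Elovl6 and 16 at the lipase Lipc. Each of these 20 lipid and cholesterol genes had a wild-type peak. Among them Pparg had 8 knockout-only, 9 shared and 9 wild-type-only peaks, Scd1 had 2, 3 and 1, and Srebf1 had 4 knockout-only and 4 shared. The P450, bile acid and lipid lists held 1, 18 and 26 wild-type-only peaks in all.

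Liver transcription factors had 152 knockout-only and 49 shared peaks, or 75.6% (69.1 to 81.4%). Nr5a2, a nuclear receptor of bile acid genes, had 24 beside 12 shared, Rxra, the partner of many nuclear receptors, had 20 beside 9, and Prox1 had 13 beside 1. Foxa1, a pioneer factor, had 7 and no wild-type peak. Hnf4a had 6 and no shared distal peak, although a promoter peak was called in both libraries. Other factors stood lower: Cebpb had no knockout-only and 3 shared peaks, and Hnf4g had no distal peak. Cebpa had 2 knockout-only beside 1 shared peak, Nr1i3 had 1 beside 1 and Nr1i2 had 5 beside 4. The list held 11 wild-type-only peaks in all. Of its 20 genes 19 had a promoter peak in knockout and 8 in wild type.

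Bile duct and stromal genes were also above the share of all peaks. Cholangiocyte markers had 70.1% (58.6 to 80%), with 8 each at Cdh1, of epithelial junctions, and the cilium gene Pkhd1. Markers of stellate cells and fibroblasts, which lay down scar matrix, had 75.8% (65.7 to 84.2%), with 11 at Reln, 10 at Col1a2, a chain of collagen I, and 9 at Dcn. Promoter peaks of this list were called for 15 genes in knockout and 4 in wild type. Matrix genes had 64.7%, and here Col4a2, a basement membrane collagen, had 15 knockout-only and 23 shared peaks while Col5a1 had 12 and 1. TGF-beta and Hippo genes stood at 57.3% and endothelial markers at 56.9%, both next to the share over all peaks. Within them Tead1, a DNA-binding partner of YAP, had 23 and Ltbp1, which stores latent TGF-beta, had 17, and the sinusoidal scavenger receptor Stab2 had 15.

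The lowest shares were those of Kupffer cells, monocytes and macrophages, neutrophils, and T and natural killer cells. Kupffer cell markers had 27 knockout-only and 53 shared peaks, or 33.8% (23.6 to 45.2%), and none of the 20 genes had 5 or more. Id3 had 4, and Csf1r, the receptor macrophages need to survive, had 3 beside 6 shared. Markers of monocytes and macrophages had 35.6% (27.5 to 44.2%), led by the chemokine receptor Cx3cr1 with 10 beside 13 shared. Neutrophil markers had 36.8% and those of T and natural killer cells 37.5%, while B and plasma cell markers had 50.9% (37.1 to 64.6%). Wild-type-only peaks numbered 27 at Kupffer cell markers and 45 at those of monocytes and macrophages, beside 27 and 48 knockout-only. At neutrophil markers they numbered 18 beside 21, at T and natural killer cell markers 30 beside 15, and at B and plasma cell markers 12 beside 28. Genes of efferocytosis, the uptake of dead cells, had 53.0%, with 20 at Dock1, an engulfment regulator, and 13 each at the cholesterol exporter Abca1 and at Elmo1, the partner of Dock proteins. Elmo1 also had 18 shared and 14 wild-type-only peaks, the integrin gene Itgb5 had 7 knockout-only beside 14 shared, and the list held 61 wild-type-only peaks in all. Ribosomal protein genes had 43.2% of few peaks, 16 knockout-only and 21 shared.

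A high share was not confined to liver genes. Neuronal genes, taken as a list foreign to hepatocytes, had 134 knockout-only and 37 shared distal peaks, or 78.4% (71.4 to 84.3%), with 25 wild-type-only peaks. Their median body was 687 kb, against 10.3 kb for hepatocyte markers and 19.1 kb for all genes with a knockout peak. Dscam and Syt1 had 15 knockout-only peaks each and Nrxn3 had 14, and Dscam also had 8 wild-type-only peaks. No interval of a list was a test between genotypes, and the lists share some genes.

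**Figure D3:**
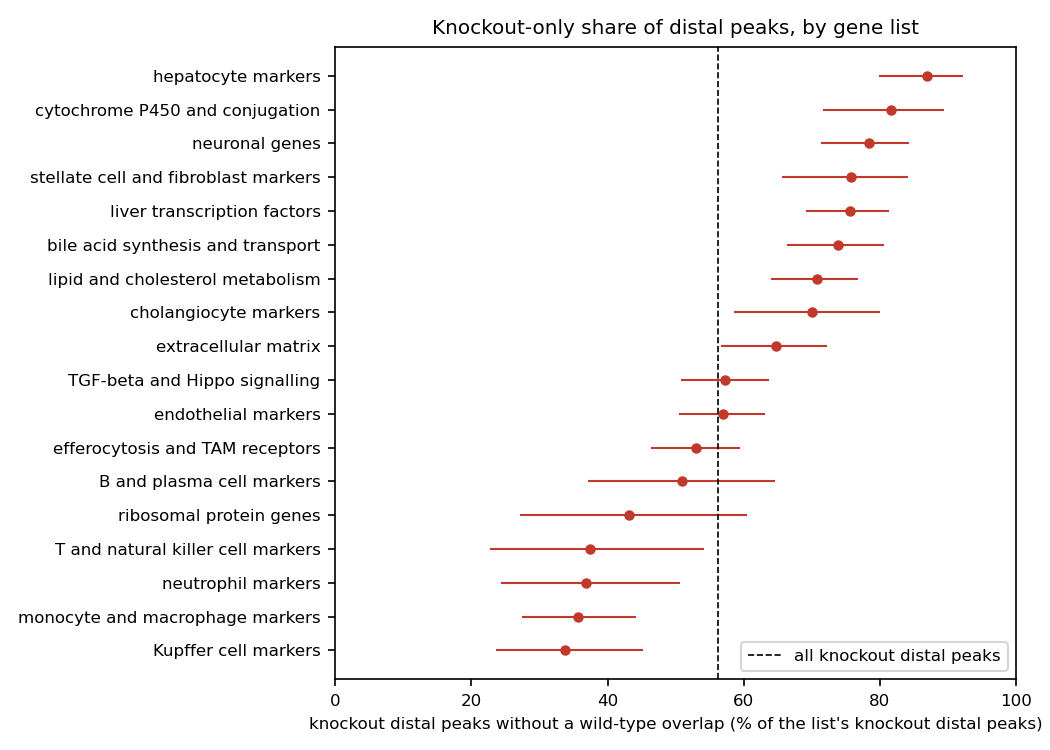
Knockout-only peaks as a percentage of each gene list's knockout distal peaks, for 18 lists; points are shares, lines exact 95% binomial intervals of counting error, and the dashed line is the share over all knockout distal peaks, 56.3%. Hepatocyte markers stand at 86.9% at the top and Kupffer cell markers at 33.8% at the bottom.

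Dense clusters were groups of at least 5 knockout-only distal peaks with gaps of 5 kb or less. There were 306, holding 1730 peaks or 3.5% of all knockout-only peaks, against 205 clusters with 2.98% of shared knockout distal peaks and 18 with 0.518% of wild-type-only distal peaks. With knockout peaks reduced to the widest, as many as in wild type, 46 clusters of knockout-only peaks were left. The wild-type-only clusters were counted against the full knockout list and not against the reduced one. Clusters of 8 or more numbered 19, 6 and 0 in the 3 classes. The span was 13.3 kb in the median (6.03 to 38.8 kb), and 72.8% of the clustered peaks overlapped a RefSeq gene. In 201 of the 306 (65.7%) no wild-type peak lay inside, and 21 held a wild-type-only distal peak. Peaks with no other knockout-only peak within 5 kb made up 54.6%, against 55.7% standing alone among shared knockout and 72.4% among wild-type-only distal peaks.

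The largest cluster held 12 knockout-only peaks in 38.8 kb of Galnt2, an enzyme that starts O-glycosylation (chr8:124257027-124295778), with 1 shared knockout and 3 wild-type-only distal peaks among them. Actn4, an actin crosslinker, had 11 peaks in 25.2 kb (chr7:28914087-28939284) and Tns1, of focal adhesions, 11 in 35.3 kb (chr1:74000020-74035287), and wild-type peaks lay within both. Without any wild-type peak inside, 9 peaks lay in 26.4 kb beside the alcohol dehydrogenase gene Adh1 (chr3:138237766-138264163) and 8 in 16.1 kb at the kininogen genes Kng1 and Kng2 (chr16:23030720-23046820). Mgll, which splits monoglycerides, had 9 in 19.5 kb, with 1 shared knockout and 1 wild-type peak inside. The predicted gene Gm30173 had 10 in 29.1 kb and Shroom3, an epithelial shape gene, 8 in 18.4 kb, with no wild-type peak inside either. Sap130 had 8 in 16.5 kb on chromosome 18. The peaks covered 25% (Galnt2) to 40.2% (Mgll) of the length of these clusters, so called and uncalled stretches alternated within each.

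**Figure D4:**
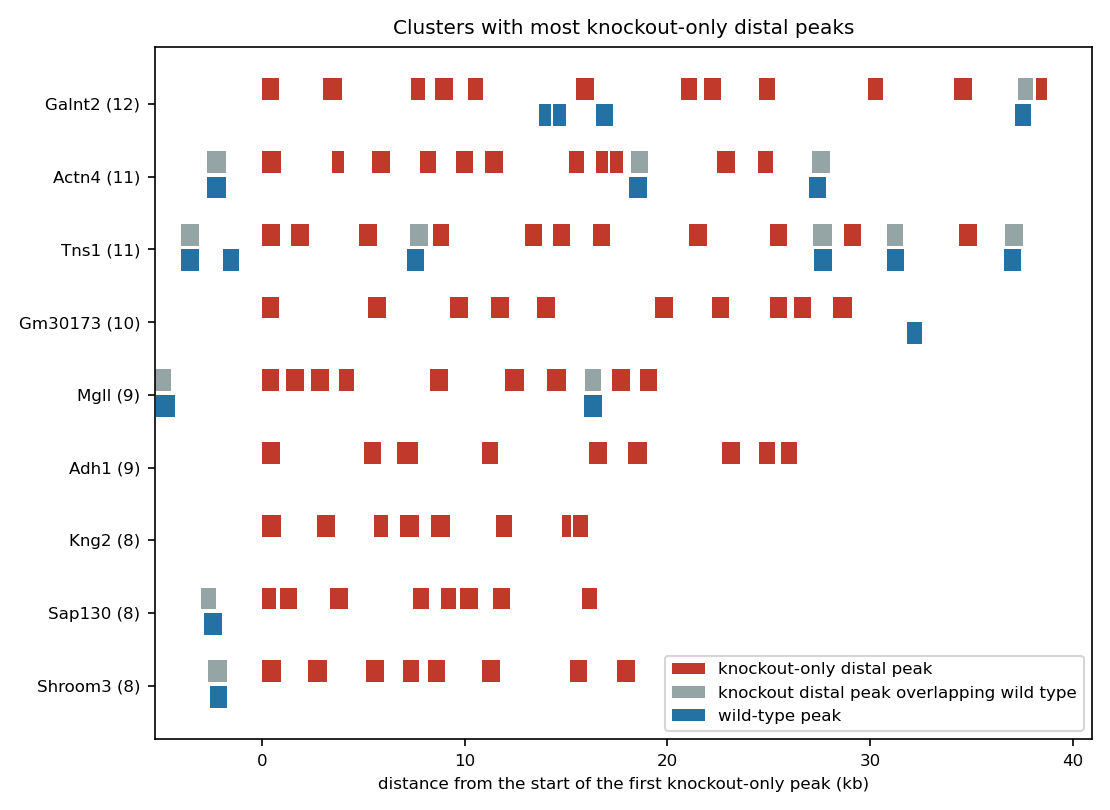
Peaks in 9 of the 10 clusters with most knockout-only distal peaks, drawn to scale against the distance in kb from the start of the first such peak, with knockout peaks above and wild-type peaks below in each row; the number of knockout-only peaks stands in brackets. Adh1 and Kng2 show 9 and 8 knockout-only peaks and no wild-type peak.

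Over longer distances, knockout-only peaks followed one another with no wild-type peak of any kind between them. Such runs were defined after the peaks had been seen. Of 23396 runs, 12943 were a single peak, 357 held 10 or more and 51 held 20 or more, and the 357 together held 5166 peaks (10.5%). The same count for wild-type-only distal peaks between knockout peaks gave 13924 runs, 3 with 10 or more peaks (0.176% of the class) and a longest run of 13. With the widest knockout peaks alone, as many as in wild type, 159 knockout-only runs held 10 or more. The wild-type-only runs were counted against the full knockout list and not against the reduced one.

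Several of the 12 longest runs lay over tandem arrays of genes expressed in hepatocytes. The longest, 49 peaks over 2240 kb (chr4:59932676-62175099), covered the Mup cluster, genes of the major urinary proteins that mouse liver secretes as pheromone carriers, with 11 peaks assigned to Mup20. The Serpina1 cluster of alpha-1 antitrypsin genes had 48 in 440 kb (chr12:103549816-103989634), 10 of them at Serpina1b. The Ugt2 and Sult1 genes of glucuronidation and sulfation had 46 in 794 kb (chr5:86849763-87643417), Cyp3a genes 37 in 860 kb (chr5:145313620-146173340), Cyp2a genes 29 in 330 kb (chr7:26799835-27129472) and Cyp2c genes 29 in 1230 kb (chr19:38998311-40232067). Knockout promoter peaks lay within all 6 runs named here, from 3 at Cyp2a to 13 at Cyp2c.

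Counted over whole families, and chosen after the runs were seen, the Cyp3a genes had 37 knockout-only distal peaks with no shared and no wild-type peak. The same held for Ugt2 with 34, Serpina1 with 23, the Slco1 organic anion transporters with 19 and the Sult2a sulfotransferases with 14. Cyp2a and its neighbours had 51 beside 1 shared peak, the carboxylesterases 47 beside 1, the Mup genes 40 beside 1 and the albumin family 34 beside 1. Families with hepatocyte members were not uniform: Cyp4f genes had 11 knockout-only, 17 shared and 6 wild-type-only peaks, Serpina3 genes 22, 13 and 5, and apolipoproteins 33, 13 and 3. Collagens had 181 knockout-only and 91 shared peaks, chemokines 57 and 69, MHC class II genes 6 and 12, and the killer cell lectin receptors 5 and 17, with 25 wild-type-only peaks. Mup, Cyp, Ugt and Serpina genes are near-copies of each other, and the sources used here do not say how reads that fit several copies were handled, so the place of a peak among copies is uncertain.

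A run of 47 over 1090 kb (chr6:141103545-142192521) held Pde3a with 22 peaks and the Slco1 array, with 7 at the bile acid uptake gene Slco1b2 and 6 at Slco1c1. A run of 40 over 836 kb ended next to Foxa2 (chr2:147204842-148040686), with 14 peaks at 9030622O22Rik, whose start-site sequence is printed above, 10 at A530006G24Rik and 7 at Foxa2, and no promoter peak within it. Foxa2, a pioneer factor of liver enhancers, had 13 knockout-only distal peaks in all, none in its body of 4.09 kb, beside 6 shared and 2 wild-type-only peaks, and 2 promoter peaks in knockout alone. A run of 38 held 35 peaks assigned to Dpyd, Gc lay in one of 33 and Pard3 in one of 29, the last within 242 kb.

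Shorter runs included an imprinted locus and genes of liver hormone response. A run of 27 in 525 kb (chr12:109595592-110120800) covered Rtl1, Rian and Mirg of the imprinted Dlk1 and Meg3 region, with 10 peaks at Gm34667. Sox5 had 17 peaks in a run of 27. The prolactin receptor gene Prlr and Agxt2, an aminotransferase, had 19 and 13 peaks in a run of 26 within 234 kb (chr15:10180490-10414019). Some of these peaks are assigned to both genes. Prlr also had 4 wild-type-only distal peaks, outside this run. Igfbp1, a hepatic binding protein of insulin-like growth factors, had 3 peaks in a run of 25 that Cccd201 led with 16 and Adcy1, an adenylyl cyclase, followed with 14.

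**Figure D5:**
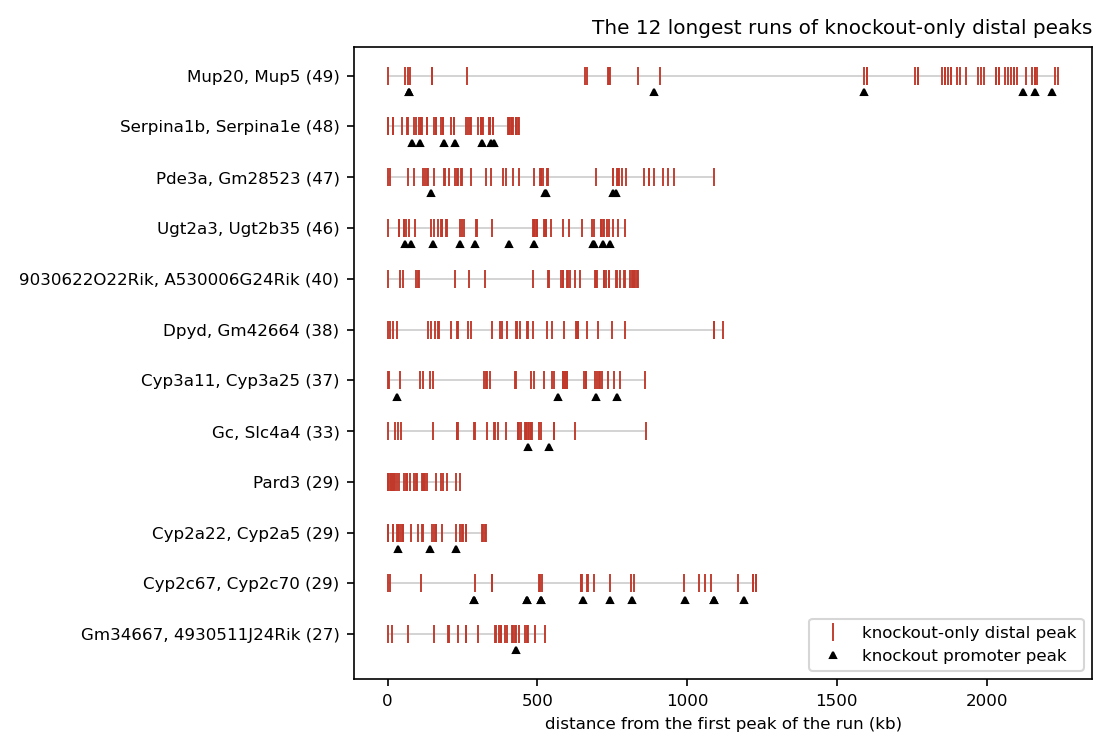
Positions of the peaks in the 12 longest runs of knockout-only distal peaks with no wild-type peak between them, as distance in kb from the first peak of the run, with the number of peaks in brackets; triangles are knockout promoter peaks. The Mup run spans 2240 kb with 49 peaks, and the Pard3 run packs 29 into 242 kb.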

How the data were processed

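Nuclei from frozen mouse liver were read with joint RNA and ATAC libraries, 1 of each per genotype. Per the file headers, the authors ran cellranger-arc 2.0.2 on mm10, with a separate run for each library. Positions alone were deposited for the peaks, without height or score. The authors' annotation names each peak's genes, its kind and a distance. Raw counts of fragments and RNA molecules per barcode, as deposited, served only as depth. The sources used here do not give the peak caller's settings.

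Other contigs than chromosomes 1 to 19, X and Y held 44 knockout and 43 wild-type peaks, which were dropped. Overlap was computed in Python 3.11.15 with pandas 2.3.3 and numpy 2.4.6, tested on simulated intervals and checked against bedtools 2.31.1. Every gene on a distal line was credited with the peak, once per peak. Gene spans, start sites and microRNAs came from RefSeq (GRCm38.p6), and 21742 of 25458 gene names matched a span. A peak was in a gene if it overlapped the span. Shares carry exact (Clopper-Pearson) 95% intervals from scipy 1.17.1.

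Named genes were Mertk, the 20 with most knockout-only distal peaks, the 10 densest bodies of 20 kb or more, the 10 with most among genes lacking a wild-type peak, the top 3 of each of 18 lists, and those of the 10 largest clusters. Some items that these rules take are not reported here. Other named genes, the 23 families, the runs and the sequences were chosen after their values were seen. The peaks, lists and rules were all chosen with earlier results of these data known. No genome sequence was used here, so motifs planned for the central 200 bases of peaks were read in RefSeq start-site windows instead. Alternatives to the overlap rule, peak width, gene assignment and cluster limits are given at the end.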

Additional observations from a re-analysis of the deposited data

How the results depend on the processing

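No paired analysis was possible because each genotype has 1 library, and none could be left out. Where a wild-type peak within 500 bp also counted as shared, the knockout-only share of knockout distal peaks was 52.8%, and where only an overlap of at least 50% of the knockout peak counted it was 57.4%, against 56.3%. With only the widest knockout peaks, as many as in the wild-type list, there were 32669 knockout-only peaks (55.1%), 372 genes with 10 or more, 46 dense clusters and 159 runs of 10 or more, against 49403, 989, 306 and 357. The count of genes with 10 or more became 138 with distance 0 alone, 626 with a peak split between its genes and 544 with peaks in the RefSeq span alone. The gene-body share was 66.4% by RefSeq spans and 22.3% by distance 0. Dense clusters numbered 27 at a gap of 2 kb, 1643 at the wider of the planned gaps and 19 from 8 peaks. The runs and the RefSeq-span count were added after seeing the data. Of 101 named genes, the number of knockout-only peaks moved by more than 1.5 times at 49 with the widest peaks and at 2 with the 500 bp rule, and at none under the other membership settings. The cause of these changes was not tested beyond the smaller or larger sets that the settings themselves make. The planned motif counts on the central 200 and 400 bases of peaks were not run. The peak lists carry no height, so a peak missed at 40858512 fragments and a site closed in wild type cannot be told apart.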

Other observations

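Egfr, the epidermal growth factor receptor abundant on hepatocytes, and Irs1, an adaptor of the insulin receptor, also carried many knockout-only distal peaks and were chosen after their values were seen. Egfr had 23, of which 14 lay in its body, beside 3 shared knockout and no wild-type-only distal peak, with a promoter peak in knockout alone. Irs1 had 11, of which 10 lay in its body, beside 2 shared knockout peaks, with a promoter peak in each library. A1cf, which edits the apolipoprotein B transcript together with Apobec1, had 9 beside 2 wild-type-only peaks and no shared one. Slc3a1, a subunit of the cystine transporter, had 9 beside 2 shared peaks, with 8 in its body of 35.9 kb.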
